A study of Mus musculus with 29 samples.

Results

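Brown adipose tissue (BAT) of treadmill-trained mice that ate freely (EX group) was compared with BAT of sedentary mice that ate freely (control). The 7 libraries, 4 EX and 3 control, were taken by their labels from the 29 libraries of the series, and all 24770 symbols of the count table were considered, of which 13407 passed the filter on low counts and were tested. All mice were wild-type (WT) male C57BL/6J, 8 weeks old when training began, and both groups ate chow ad libitum. The EX group ran on a treadmill for 8 weeks, on 5 days a week for 1 h at 12 m/min on a 5 degree incline, after 3 h without food. Tissue was collected 24 h after the last bout, and 6 h after food was removed in both groups. The hour of the day at collection was not given in the sources used here. Another 4 BAT libraries each came from calorie restricted mice (CR) and from calorie restricted, trained mice (CREX), and serve below as the same training contrast on another diet. Each library is a separate sample by its label, and nothing says whether mice were pooled.

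Brown adipocytes hold many small lipid droplets and many mitochondria, and burn fatty acids and glucose for heat through the uncoupling protein UCP1. Sympathetic nerves drive the tissue by releasing noradrenaline, which raises cAMP in the adipocytes, starts lipolysis and switches on Ucp1, Dio2 and Ppargc1a. The tissue also carries a strong circadian clock, and its transcripts change with feeding, fasting and stress. Exercise works the skeletal muscle, and what training does to BAT is less settled than what it does to muscle or to white fat.

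Brown adipocyte markers were abundant in every library. The 12 markers tested summed to 15904 to 17750 CPM (counts scaled to library size) in the control libraries and 14433 to 16354 CPM in the EX libraries. Ucp1 was read at 3841, 4750 and 4200 CPM in the control libraries and at 3878, 4073, 3248 and 2954 CPM in the EX libraries. Adipoq, which encodes adiponectin, and Cidea, which encodes a lipid droplet protein of brown fat, were likewise abundant in every library. Total counts were 22549148 to 24665593 in the control libraries and 21047242 to 22672096 in the EX libraries, so that 3 counts corresponded to 0.122 to 0.143 CPM. Transcripts of the mitochondrial genome took 41.9% to 45.9% of the counts.

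DNA upstream of annotated starts of clock and immediate early genes that the results turn on is shown first, because these gene groups hold several of the clearest differences. The sequences are RefSeq promoter entries of build GRCm38.p6, written 5′ to 3′ on the strand of the gene, and each is a stretch of the 250 bases before an annotated start, of which a gene may have several. Capitals mark the motif searched for, on both strands. In Per3, a member of the period family, the capitals are the D-box TTATGTAA, the element through which DBP and TEF activate and NFIL3 represses transcription. In Tef they are the E-box CACGTG, bound by CLOCK and its partner ARNTL, and in Nfil3 and Nr4a3 they are TGACG, the core of the cAMP response element, which reads CGTCA where it lies on the other strand.
Per3 (chr4:151044766-151044915, - strand): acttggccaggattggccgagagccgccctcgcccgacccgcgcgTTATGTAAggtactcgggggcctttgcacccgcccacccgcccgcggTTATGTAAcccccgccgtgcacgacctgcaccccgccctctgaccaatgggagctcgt
Tef, first start (chr15:81802496-81802601, + strand): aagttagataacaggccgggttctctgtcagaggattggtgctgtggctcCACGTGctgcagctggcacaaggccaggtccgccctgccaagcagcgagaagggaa
Tef, second start (chr15:81811226-81811331, + strand): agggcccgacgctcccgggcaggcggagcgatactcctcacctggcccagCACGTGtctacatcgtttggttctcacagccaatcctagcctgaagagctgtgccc
Nfil3 (chr13:52981044-52981148, - strand): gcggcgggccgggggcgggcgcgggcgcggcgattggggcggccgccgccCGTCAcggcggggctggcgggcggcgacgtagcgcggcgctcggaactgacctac
Nr4a3 (chr4:48045055-48045212, + strand): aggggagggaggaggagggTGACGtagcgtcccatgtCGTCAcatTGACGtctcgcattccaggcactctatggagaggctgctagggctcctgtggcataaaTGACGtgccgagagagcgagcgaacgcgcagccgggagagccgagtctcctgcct

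Per3 held 2 D-boxes, 205 and 158 bases upstream of that start, and was the only one of the 17 clock genes matched to a promoter that held one. Of all 32851 promoter windows of 250 bases, 0.819% held a D-box. An E-box was found in 5 of the 17 clock genes (Bhlhe41, Ciart, Cry1, Per1 and Tef) and in 6.02% of all windows. Nr4a3 held 4 copies of TGACG, at 231, 213, 205 and 147 bases upstream of the start used, and Nfil3 held 1, at 59 bases. Both starts lie inside the span of the gene given below, so the Nfil3 stretch and most of the Nr4a3 stretch lie within the gene. TGACG was found in 13 of the 19 immediate early genes that were matched and in 17.8% of all windows, and the full element TGACGTCA, which contains it, in 3 of the 19 (Btg2, Dusp1 and Maff) and in 1.55% of all windows. A gene was counted if any of its windows held the motif, whereas the percentages are of single windows. Genes with several starts have more windows, so the gene counts and the percentages cannot be compared directly. These are matches of letters only, and the windows of Dbp and Nr1d1 held neither E-box nor D-box. Of the immediate early genes, Cyr61, Egr1, Egr3, Ier2 and Myc were not matched.

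Trained and control BAT were close to each other across the transcriptome. A differentially expressed gene (DEG) had to differ by more than 1.5-fold with an adjusted p under 0.05. By edgeR's quasi-likelihood test there were 0 DEGs among 13407 genes (0%), and the smallest adjusted p was 0.109, for Dbp. Without adjustment, 972 genes had a p under 0.05 (7.25%). Of these, 272 were past the 1.5-fold limit (2.03% of the genes tested), 152 of them higher in EX (1.13%) and 120 lower (0.895%). DESeq2, run on the same libraries, called 36 DEGs of 15896 genes with an adjusted p (0.226%), 13 higher (0.0818%) and 23 lower (0.145%), out of 1036 genes at an unadjusted p under 0.05. All 36 had an edgeR unadjusted p of 0.0266 or less, and in 33 of them the EX libraries did not overlap the control libraries. DESeq2 chose these genes on the same libraries, so neither value is separate support for the calls. Over all genes tested, the libraries did not overlap in 1086 genes (8.10%), 421 higher in EX (3.14%) and 665 lower (4.96%).

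The size of a difference that could have been missed was small for most genes. The median log2 fold change over all genes was 0.01 with a median standard error (SE) of 0.13. For 8826 genes (65.8%) the 95% interval of the fold change lay wholly within 1.5-fold in either direction, and for 11362 genes (84.7%) within 2-fold. The plot of fold change against level shows the 36 DESeq2 calls among all genes.

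**Figure D1:**
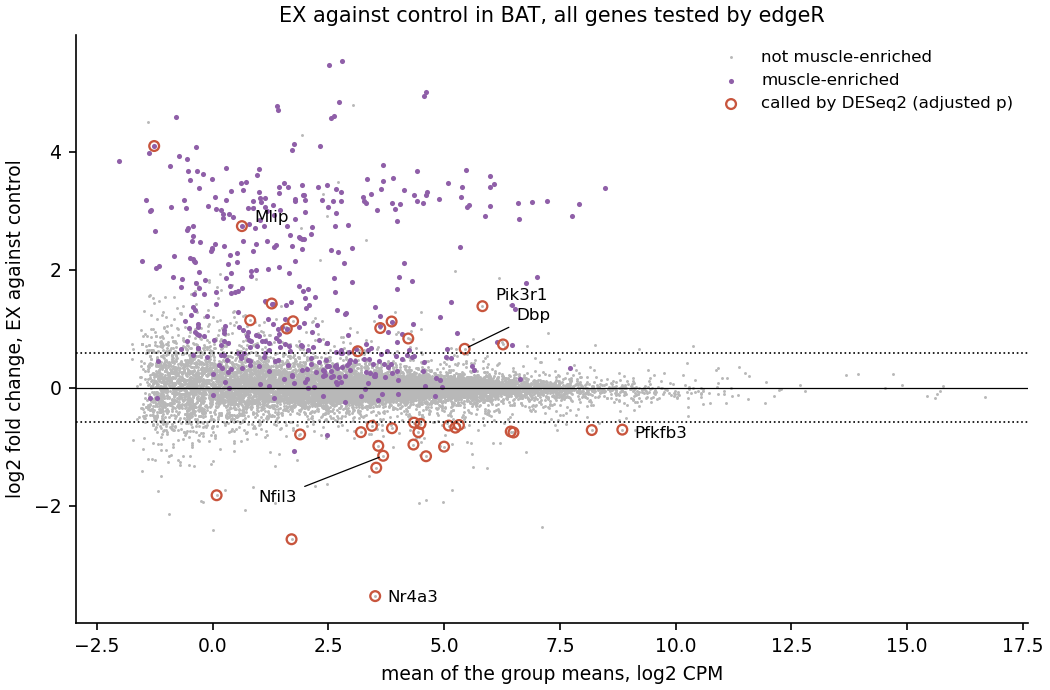
Log2 fold change of EX against control (vertical axis) against the mean level in log2 CPM (horizontal axis) for the 13407 genes tested. Purple points are the 430 muscle-enriched genes, which lie mostly above 0, red circles mark the DESeq2 DEGs, and dotted lines mark a fold change of 1.5.

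The widest spread between libraries was in skeletal muscle transcripts, which are not made by brown adipocytes in quantity. Muscle-enriched genes were defined as those with a mean of at least 10 CPM in the gastrocnemius of control mice and at least 8 times the mean of the 15 BAT libraries; there were 502, of which 430 were tested. Their share of the counts was 0.372%, 0.205% and 0.181% in the control libraries and 0.461%, 1.17%, 1.52% and 0.197% in EX replicates 1 to 4. EX replicates 1, 2 and 3 thus stood above every control library, replicate 1 by little, whereas EX replicate 4 lay within the control range. Of the 430 genes, 414 were higher in EX, with a median log2 fold change of 1.42 and a median SE of 0.69, against 6953 of all 13407 genes (51.9%). Past 1.5-fold with an unadjusted p under 0.05 there were 66 higher (15.3%) and 0 lower, and 21 were above every control library in all 4 EX libraries (4.88%). By edgeR 0 of them were DEGs and by DESeq2 5, all higher, so that genes which make up 3.21% of those tested supplied 5 of the 13 higher calls. Among the 12977 other genes, 86 were higher (0.663%) and 120 lower (0.925%) by the same fold and unadjusted p.

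The contractile transcripts Acta1 and Myh4 were likewise highest in EX replicates 2 and 3. Acta1, the skeletal muscle actin, was at 174, 14.0 and 0.743 CPM in the control libraries and at 266, 981, 1348 and 1.31 CPM in the EX libraries. Its log2 fold change was 3.38 ± 2.48 (SE, n = 4 and 3), and EX replicate 4 lay among the controls while the other 3 EX libraries lay above them (adjusted p = 0.776 by edgeR). Myh4, the fast IIb myosin heavy chain, ran from 0.175 CPM in EX replicate 4 to 743 CPM in EX replicate 2. Myh7, the slow myosin heavy chain, reached 180 CPM in EX replicate 3 and was at most 9.79 CPM in the other 6 libraries. All 36 skeletal muscle fibre markers were higher in EX, with a median log2 fold change of 3.19 (median SE 2.01), and 0 of them had an unadjusted p under 0.05. Without EX replicates 2 and 3 their median was 1.18 and without control replicate 1 it was 5.99. The mean log2 level of these markers in a library is called its muscle score below. Muscle-enriched genes made up 254 of the 500 genes that varied most between the 7 libraries, and the first principal component of those genes held 78.0% of their variance. In bulk tissue, fewer cells of a type and less RNA per cell cannot be told apart, here and in what follows.

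**Figure D2:**
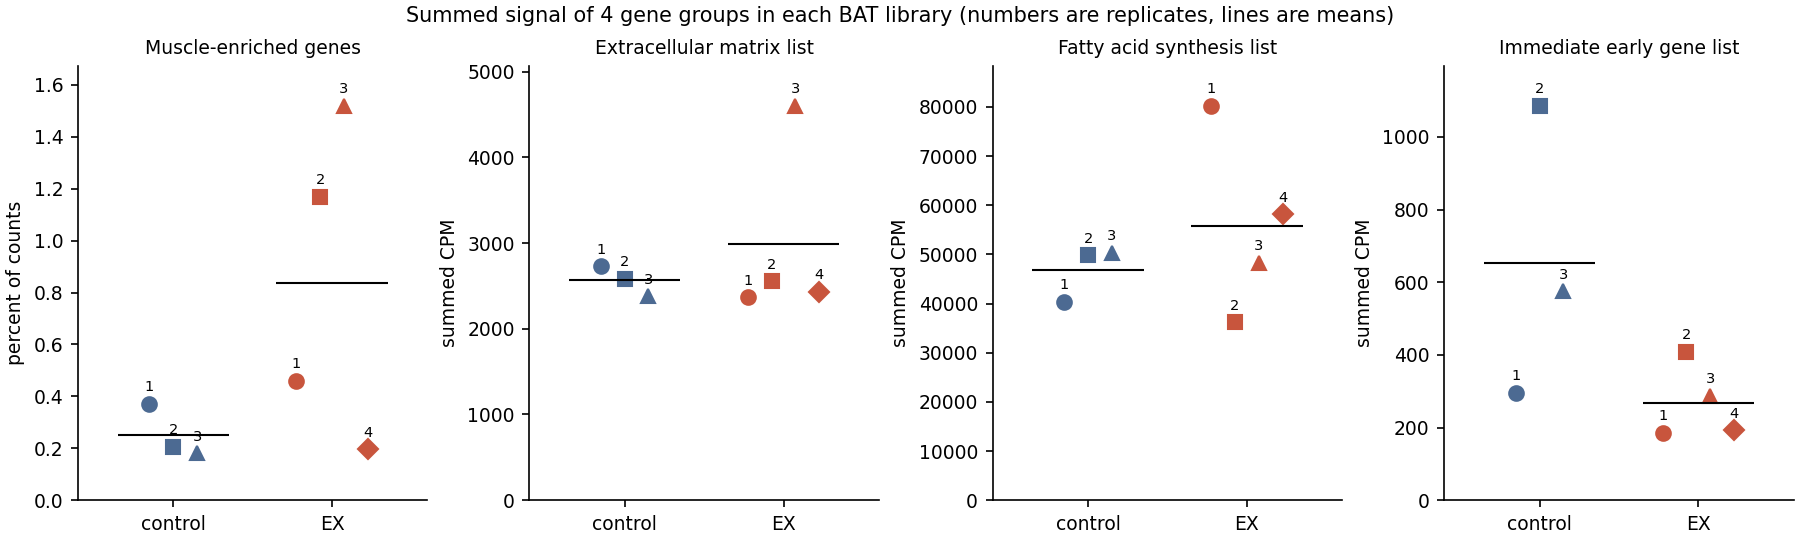
Each point is 1 BAT library, with the replicate number beside it and the group mean as a line: percent of counts in muscle-enriched genes, and summed CPM of the extracellular matrix, fatty acid synthesis and immediate early gene lists. EX replicates 2 and 3 are high in the first panel, EX replicate 3 in the second, EX replicate 1 in the third and control replicate 2 in the fourth.

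The clock genes held the smallest p of the comparison. Dbp, a clock output transcription factor that activates D-box genes (chr7:45705100-45710203), was at 36.5, 33.5 and 31.8 CPM in the control libraries and at 55.2, 55.7, 48.8 and 52.7 CPM in the EX libraries. Every EX library lay above every control library. The log2 fold change was 0.66 ± 0.07 (SE; 1.58-fold), with an edgeR adjusted p of 0.109 and a DESeq2 adjusted p of 3.0e-09. Its edgeR adjusted p fell below 0.05 when muscle-enriched genes were taken out (0.0494), without a filter on low counts (0.00876) and without EX replicates 2 and 3 (0.0472). The last of these was chosen after the data were seen, and in no other edgeR alternative was Dbp a DEG.

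Nfil3, which encodes the repressor that competes with DBP at the D-box (chr13:52967209-52982878), lay on the other side. It was at 17.2, 17.1 and 18.9 CPM in the control libraries and at 4.66, 9.47, 11.0 and 6.43 CPM in the EX libraries. The control libraries were tightly grouped and all EX libraries were below them, by 1.16 ± 0.27 on the log2 scale (SE; adjusted p = 0.417 by edgeR and 0.00425 by DESeq2). With 1 library left out its log2 fold change ran from -1.37 to -0.97. Without EX replicates 2 and 3 it was -1.68, with an edgeR adjusted p of 0.0313. That alternative was chosen after the data were seen and takes out the EX libraries with the most Nfil3. In no other edgeR alternative was Nfil3 a DEG.

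Per3, whose upstream DNA holds the paired D-boxes shown above, was at 40.9, 45.0 and 36.4 CPM in the control libraries and at 47.0, 60.9, 49.9 and 59.2 CPM in the EX libraries. Its log2 fold change was 0.42 ± 0.11 (SE; edgeR unadjusted p = 0.00357, adjusted p = 0.403), and the groups did not overlap. Tef, a relative of Dbp, was at 124 to 135 CPM in the control libraries and at 139 to 174 CPM in the EX libraries, with a log2 fold change of 0.26 ± 0.09. Clock, the partner of ARNTL in the activating arm, was at 28.5 to 29.4 CPM against 22.6 to 25.7 CPM, with a log2 fold change of -0.27 ± 0.07. Nr1d1, the repressor REV-ERBα, was at 117 to 150 CPM against 101 to 110 CPM, with a log2 fold change of -0.31 ± 0.09. Nr1d2 and Cry2 were higher by 0.26 and 0.33 on the log2 scale, and in both of them 1 EX library lay within the control range. Per1, another period gene, gave no such separation, with a log2 fold change of -0.47 ± 0.43.

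Of the 20 clock genes tested, 8 were higher and 4 lower at an unadjusted p under 0.05 by edgeR, against 3.30% and 3.95% of all genes. The count of higher genes was 3 without control replicate 2, and 4 without control replicate 3, without EX replicates 2 and 3 or with the muscle score as covariate. The EX libraries lay above all control libraries in 3 of the 20 genes and below in 4, against 3.14% and 4.96% of all genes. DESeq2 called Dbp and Nfil3, and edgeR called 0 of the 20. The median log2 fold change of the list, 0.18, stands for genes that differed in opposite directions, and was -0.05 without EX replicates 2 and 3. The list's members at an unadjusted p under 0.05 ran from -1.50 for Npas2, which was at most 1.03 CPM in any library, to 0.66 for Dbp.

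Most immediate early genes, which stimuli switch on within minutes, had lower levels in EX. Nr4a3, a nuclear receptor induced by cAMP in fat (chr4:48045078-48086447), was at 7.91, 37.4 and 17.6 CPM in the control libraries and at 1.06, 3.29, 2.02 and 0.788 CPM in the EX libraries. The lowest control library was above the highest EX library, although the control libraries themselves spread widely. The log2 fold change was -3.53 ± 0.72 (SE; 95% interval -5.33 to -1.74), with an edgeR adjusted p of 0.401 and a DESeq2 adjusted p of 0.00127. Without control replicate 2, the highest library, it was -2.82. Nr4a1, from the same family, was at 20.5, 466 and 211 CPM in the control libraries and at 7.57, 112, 51.9 and 8.05 CPM in the EX libraries, which overlapped.

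Jund, a subunit of the AP-1 transcription factor, was at 38.3 CPM or more in the control libraries and at 25.9, 33.7, 31.5 and 27.4 CPM in the EX libraries, a log2 fold change of -0.54 ± 0.12. Zfp36, which encodes a protein that destabilizes cytokine mRNAs, was at 28.6, 22.8 and 25.5 CPM against 14.7, 17.8, 16.2 and 20.3 CPM, a log2 fold change of -0.56 ± 0.12. In both genes every EX library lay below every control library (edgeR unadjusted p of 0.00124 and 9.0e-04, DESeq2 adjusted p of 0.0308 and 0.0218), at a fold change below 1.5. Fos and Egr1 rested on 1 library. Fos was at 0.306, 3.30 and 0.413 CPM in the control libraries and at 0.457 to 1.17 CPM in the EX libraries, and its log2 fold change of -0.85 became 1.04 without control replicate 2; for Egr1, -1.51 became 1.41.

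Of the 24 immediate early genes tested, 23 were lower in EX (48.1% of all genes tested were), with a median log2 fold change of -0.84 (median SE 0.49). Leaving out control replicate 2 gave 19 lower, 5 higher and a median of -0.37, and the other 6 libraries, left out in turn, gave medians of -0.71 to -1.10. At an unadjusted p under 0.05, 6 were lower, against 3.95% of all genes. That count was 3 without EX replicate 4 or with the muscle score as covariate. It was 11 without control replicate 1, and 4 to 9 without any other single library. The summed level of the list was 296, 1086 and 575 CPM in the control libraries and 185, 408, 288 and 192 CPM in the EX libraries, so that control replicate 1 lay within the EX range.

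**Figure D3:**
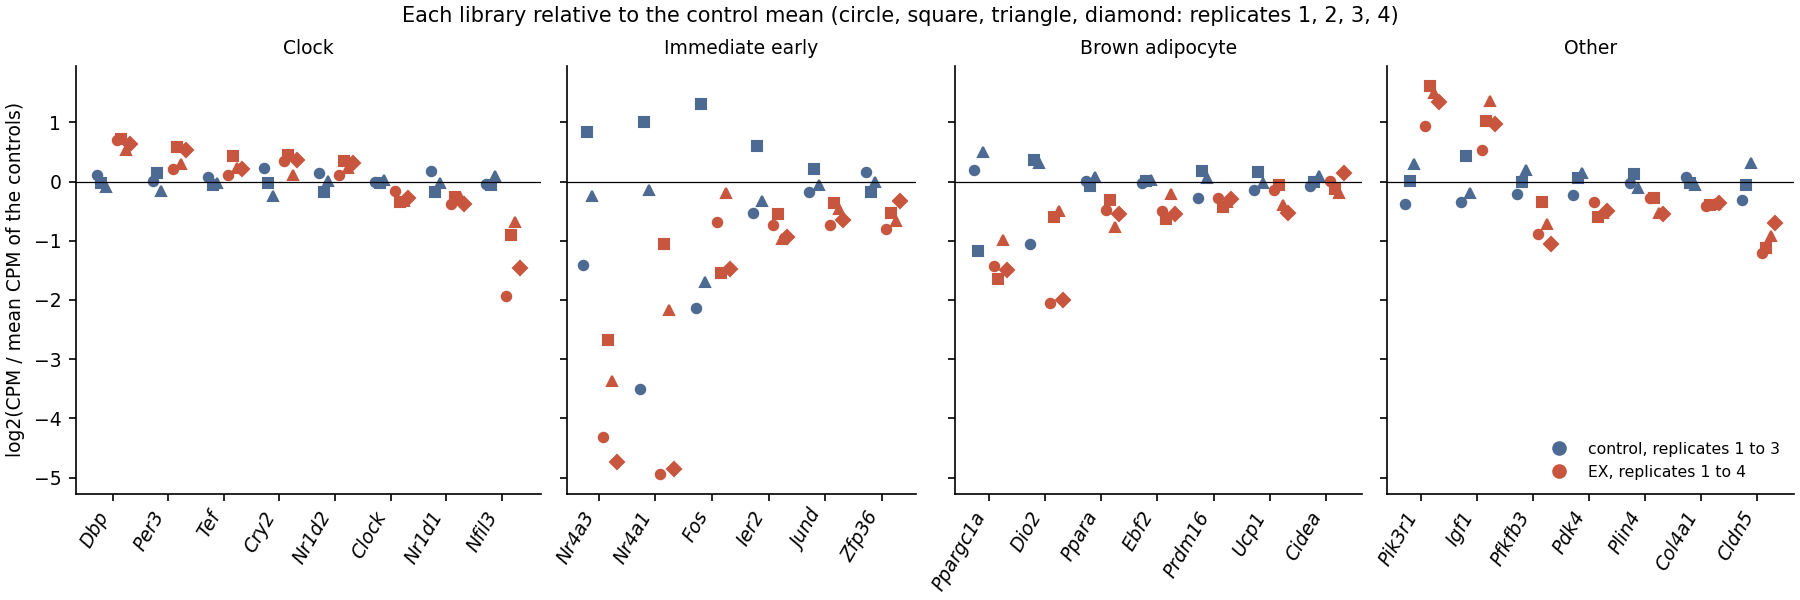
Level of selected genes in each of the 7 libraries as log2 of CPM over the mean CPM of the 3 control libraries (blue, control; red, EX; symbols mark the replicate). Dbp and Pik3r1 lie above all controls in the 4 EX libraries, Nfil3, Nr4a3 and Col4a1 below, whereas for Nr4a1, Fos, Dio2 and Cidea the groups overlap.

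The brown adipocyte regulators Ppara, Ebf2 and Prdm16 were lower in EX, whereas for Ucp1 and Cidea the groups overlapped. Ppara, the nuclear receptor that governs fatty acid oxidation, was at 321, 301 and 334 CPM in the control libraries and at 229, 256, 188 and 219 CPM in the EX libraries. Its log2 fold change was -0.50 ± 0.10 (SE), with an edgeR unadjusted p of 5.9e-04, an edgeR adjusted p of 0.294 and a DESeq2 adjusted p of 0.00215. The fold change itself stayed below 1.5. Ebf2, which marks brown adipocytes and their precursors, was at 48.0, 49.5 and 49.8 CPM against 34.6, 31.6, 42.3 and 33.4 CPM, a log2 fold change of -0.46 ± 0.10. Prdm16, a coregulator of brown fat identity, was lower by 0.33 ± 0.10 on the log2 scale, with 22.6 to 31.1 CPM in the control libraries and 20.3 to 22.5 CPM in the EX libraries.

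The transporter gene Slc36a2 and the potassium channel gene Kcnk3, both enriched in brown fat, and Cox8b, a cytochrome oxidase subunit gene, were lower by 0.24, 0.29 and 0.19 on the log2 scale, with libraries that did not overlap. Ucp1 had a log2 fold change of -0.26 ± 0.12, with a 95% interval of -0.54 to 0.02, so that a decrease of more than 1.5-fold lay outside the interval. Cidea had one of -0.03 ± 0.09, with an interval of -0.23 to 0.18. Of the 30 genes tested in the brown adipocyte identity list, 8 were lower and 1 higher at an unadjusted p under 0.05 (3.95% and 3.30% of all genes were). Without overlap 6 were lower and 0 higher (4.96% and 3.14% of all genes), and the median log2 fold change was -0.15 (median SE 0.11). With the muscle score as covariate the median was -0.08 and 4 were lower at that p, and without EX replicates 2 and 3 the median was -0.07 and 6 were lower. The count of lower genes at that p was 4 without control replicate 3, and 6 to 8 without any other single library.

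The cAMP-responsive members varied more. Ppargc1a, the coactivator of mitochondrial biogenesis, was at 81.5, 31.5 and 101 CPM in the control libraries and at 26.6, 22.7, 36.0 and 25.4 CPM in the EX libraries. EX replicate 3 lay above control replicate 2, and the log2 fold change was -1.35 ± 0.42 (edgeR unadjusted p = 0.0188, adjusted p = 0.597). Dio2, which makes active thyroid hormone, was at 71.5, 191 and 184 CPM against 36.1, 97.9, 105 and 37.0 CPM, with overlap. Irf4, a transcription factor induced by cold and fasting, was at 9.44, 115 and 24.4 CPM in the control libraries and 11.4 to 14.4 CPM in the EX libraries. Its log2 fold change of -1.94 became -0.39 without control replicate 2.

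Of the genes tested, 14 of 20 in the adrenergic and lipolysis list and 11 of 15 in the lipid droplet list were lower in EX. The median log2 fold changes were -0.14 and -0.15, and 48.1% of all genes tested were lower. Pde4d, a cAMP phosphodiesterase gene, was at 72.7, 144 and 124 CPM in the control libraries and at 64.7, 78.6, 66.5 and 56.5 CPM in the EX libraries. DESeq2 called it (adjusted p = 0.0477), edgeR did not (adjusted p = 0.580), and 1 EX library was above the lowest control. In the adrenergic and lipolysis list 3 of 20 genes were lower and 1 higher at an unadjusted p under 0.05, against 3.95% and 3.30% of all genes. The count of lower genes was 1 without control replicate 2, control replicate 3 or EX replicate 1, and 6 without EX replicate 2. Pnpla2, the first lipase of lipolysis, had a log2 fold change of -0.12 ± 0.09.

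The perilipins coat the lipid droplet. Plin4 was at 498, 550 and 472 CPM in the control libraries and at 418, 418, 349 and 345 CPM in the EX libraries, a log2 fold change of -0.40 ± 0.10. Plin1 and Plin5 were lower by 0.26 ± 0.08 and 0.23 ± 0.07, and the libraries of all 3 genes did not overlap. In the list of 15 droplet genes, 5 were lower and 2 higher at an unadjusted p under 0.05, against 3.95% and 3.30% of all genes. The higher ones were Cideb and Fitm1, and Fitm1 is muscle-enriched.

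Fatty acid synthesis genes were higher in some EX libraries and not in others. Acly, which makes cytosolic acetyl-CoA, was at 825, 928 and 1275 CPM in the control libraries and at 3249, 572, 821 and 1889 CPM in EX replicates 1 to 4. Me1, the malic enzyme that supplies NADPH, was at 389, 450 and 539 CPM against 1303, 321, 437 and 799 CPM. Fasn, the fatty acid synthase gene, was at 10654, 12216 and 13633 CPM against 19172, 8275, 11623 and 16838 CPM. In each of the 3 genes EX replicates 1 and 4 were above the controls, and EX replicates 2 and 3 lay within or below them.

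All 20 genes of the list had a positive log2 fold change (51.9% of all genes tested did), with a median of 0.27 (median SE 0.30). Only Acacb had an unadjusted p under 0.05, and the libraries overlapped in all 20. Without EX replicate 1 the median was 0.05. Without EX replicates 2 and 3, the libraries with over 1% muscle-enriched counts, it was 0.62, which describes the pair of EX libraries in which these genes were high. The part of muscle RNA in this split of the EX libraries was not tested.

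Genes for burning fuel showed small differences. Pdk4, which holds back glucose oxidation, was at 1219, 1486 and 1591 CPM in the control libraries and at 1125, 948, 989 and 1015 CPM in the EX libraries, a log2 fold change of -0.48 ± 0.10 (adjusted p = 0.345 by edgeR and 0.00448 by DESeq2). It was the only one of the 28 fatty acid oxidation genes at an unadjusted p under 0.05. The median of that list was -0.10, and Cpt1b, the gene of the carnitine palmitoyltransferase of mitochondrial entry, had a log2 fold change of -0.17 ± 0.09. Dgat2, the last step of triglyceride synthesis, was at 1855 to 1865 CPM in the control libraries and at 1405 to 1759 CPM in the EX libraries, a log2 fold change of -0.26 ± 0.09.

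Pfkfb3, whose product raises the allosteric activator of glycolysis, was at 496, 571 and 654 CPM in the control libraries and at 312, 451, 350 and 276 CPM in the EX libraries. DESeq2 called it with a log2 fold change of -0.71 and an adjusted p of 0.00793 (adjusted p = 0.400 by edgeR). It was the only glycolysis gene lower at an unadjusted p under 0.05, whereas 4 of the 31 were higher, against 3.30% of all genes, among them the muscle-enriched Pfkm. The count of higher genes was 1 without control replicate 2 or 3, 2 without control replicate 1 or EX replicate 3, and 13 without EX replicates 2 and 3. The 83 nuclear genes of oxidative phosphorylation had a median log2 fold change of -0.04 (median SE 0.08), with 3 lower and 0 higher at an unadjusted p under 0.05, near the 3.95% of all genes that were lower, and the 13 mitochondrial genome transcripts a median of 0.00 with 0 of either.

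Outside the muscle-enriched genes, the DESeq2 call with the highest log2 fold change was Pik3r1, the regulatory subunit of PI 3-kinase and a gene of the glucocorticoid receptor target list (chr13:101680761-101768217). It was at 24.4, 31.7 and 38.9 CPM in the control libraries and at 60.7, 97.2, 89.4 and 80.0 CPM in the EX libraries. The lowest EX library was above the highest control library, and the log2 fold change was 1.38 ± 0.21 (SE; 95% interval 0.88 to 1.88; adjusted p = 0.252 by edgeR and 2.5e-09 by DESeq2). It lay between 1.23 and 1.55 when each library was left out in turn. It was the only one of the 14 genes of that list higher at an unadjusted p under 0.05, and 4 were lower, against 3.30% and 3.95% of all genes. Errfi1, which encodes an inhibitor of the EGF receptor, was among the 4. That count was 1 without control replicate 1, control replicate 3, EX replicate 1 or EX replicate 3, 2 without control replicate 2 or EX replicate 4, and 0 with the muscle score as covariate.

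Igf1, insulin-like growth factor 1, was at 6.42, 11.0 and 7.14 CPM in the control libraries and at 11.9, 16.6, 20.9 and 16.0 CPM in the EX libraries, a log2 fold change of 1.01 ± 0.25 (adjusted p = 0.436 by edgeR and 0.00960 by DESeq2). DESeq2 also called Gas6, a ligand of the TAM receptors, Gdf10, a BMP-like ligand, and Steap4, a metalloreductase gene, with log2 fold changes of 0.83, 1.12 and 0.73 by edgeR. In each of these 4 genes the EX libraries were above all control libraries. With Dbp, Pik3r1, Fam46a and Ube2ql1 they make up the calls on the higher side that are not muscle-enriched. The muscle-enriched ones were Lrtm1, Got1, Plpp7, Mlip and Gm572, and for Got1 and Mlip EX replicate 4 lay within the control range.

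Of the 23 genes that DESeq2 called lower, none was muscle-enriched. The group held the transcription factor gene Bcl6b, at a log2 fold change of -1.36, and Gadd45g, a stress-response gene, which was at 40.7 to 45.5 CPM in the control libraries and 14.5 to 25.6 CPM in the EX libraries. Prkag2, a regulatory subunit of AMP-activated protein kinase, was at 126, 94.5 and 106 CPM in the control libraries and at 58.0, 66.5, 58.3 and 74.9 CPM in the EX libraries. Its log2 fold change was -0.74 ± 0.12 (adjusted p = 0.225 by edgeR). Atg101, which encodes a part of the complex that starts autophagy, was at 22.9, 27.2 and 32.1 CPM against 17.0, 16.6, 15.3 and 15.6 CPM, a log2 fold change of -0.75 ± 0.11, and was an edgeR DEG when all 15 BAT libraries shared the fit (adjusted p = 0.0411). Peg3os and Ctcflos, transcripts named for the gene on the opposite strand, were also called lower. Reads of such a pair cannot be told apart without strand, and the RSEM command in the study's methods has no strand option.

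Of the 15 endothelial markers tested, 11 were lower in EX (48.1% of all genes tested were), with a median log2 fold change of -0.15. Cldn5, the claudin of endothelial tight junctions, was at 21.5, 25.8 and 33.1 CPM in the control libraries and at 11.6, 12.3, 14.2 and 16.4 CPM in the EX libraries, a log2 fold change of -0.97 ± 0.17 (adjusted p = 0.252 by edgeR and 1.4e-04 by DESeq2). It was the only one of the 15 at an unadjusted p under 0.05, where 3.95% of all genes were lower. Outside that list, Mcam, the adhesion molecule CD146 of vessel walls, was at 50.3, 51.1 and 44.7 CPM against 33.4, 34.6, 31.4 and 25.1 CPM. Vegfa, the main angiogenic growth factor, was at 266, 261 and 277 CPM against 234, 240, 218 and 203 CPM, a log2 fold change of -0.25 ± 0.08.

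Col4a1 and Col4a2, the only chains of the basement membrane collagen type IV in the matrix list, were lower in EX with little spread. Col4a1 was at 252, 233 and 229 CPM in the control libraries and at 179, 181, 182 and 184 CPM in the EX libraries, a log2 fold change of -0.38 ± 0.06 (SE; edgeR unadjusted p = 1.8e-04, adjusted p = 0.225; DESeq2 adjusted p = 5.9e-06). Col4a2, which pairs with it in the same trimer, had a log2 fold change of -0.35 ± 0.08. Col5a3, a chain of type V collagen, had one of -0.46 ± 0.10. None of the 3 overlapped between the groups, and none reached a fold change of 1.5.

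The values of both type I collagen chains were set by 1 library. Col1a1 was at 31.4, 36.5 and 27.3 CPM in the control libraries, at 34.5, 39.0 and 32.7 CPM in EX replicates 1, 2 and 4, and at 350 CPM in EX replicate 3. Its log2 fold change of 1.86 ± 1.13 became 0.16 without that library. Col1a2, the other chain of type I collagen, reached 341 CPM in EX replicate 3 and at most 57.0 CPM elsewhere. Of the 55 extracellular matrix genes, 44 were higher in EX (51.9% of all genes tested were), with a median log2 fold change of 0.35. Without EX replicate 3, 33 were higher and the median was 0.03. At an unadjusted p under 0.05 2 were higher, Smoc1 and Smoc2, which encode calcium-binding matrix proteins, and 3 were lower, Col4a1, Col4a2 and Col5a3. These counts are near the shares of all genes at that p, 3.30% higher and 3.95% lower.

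**Figure D4:**
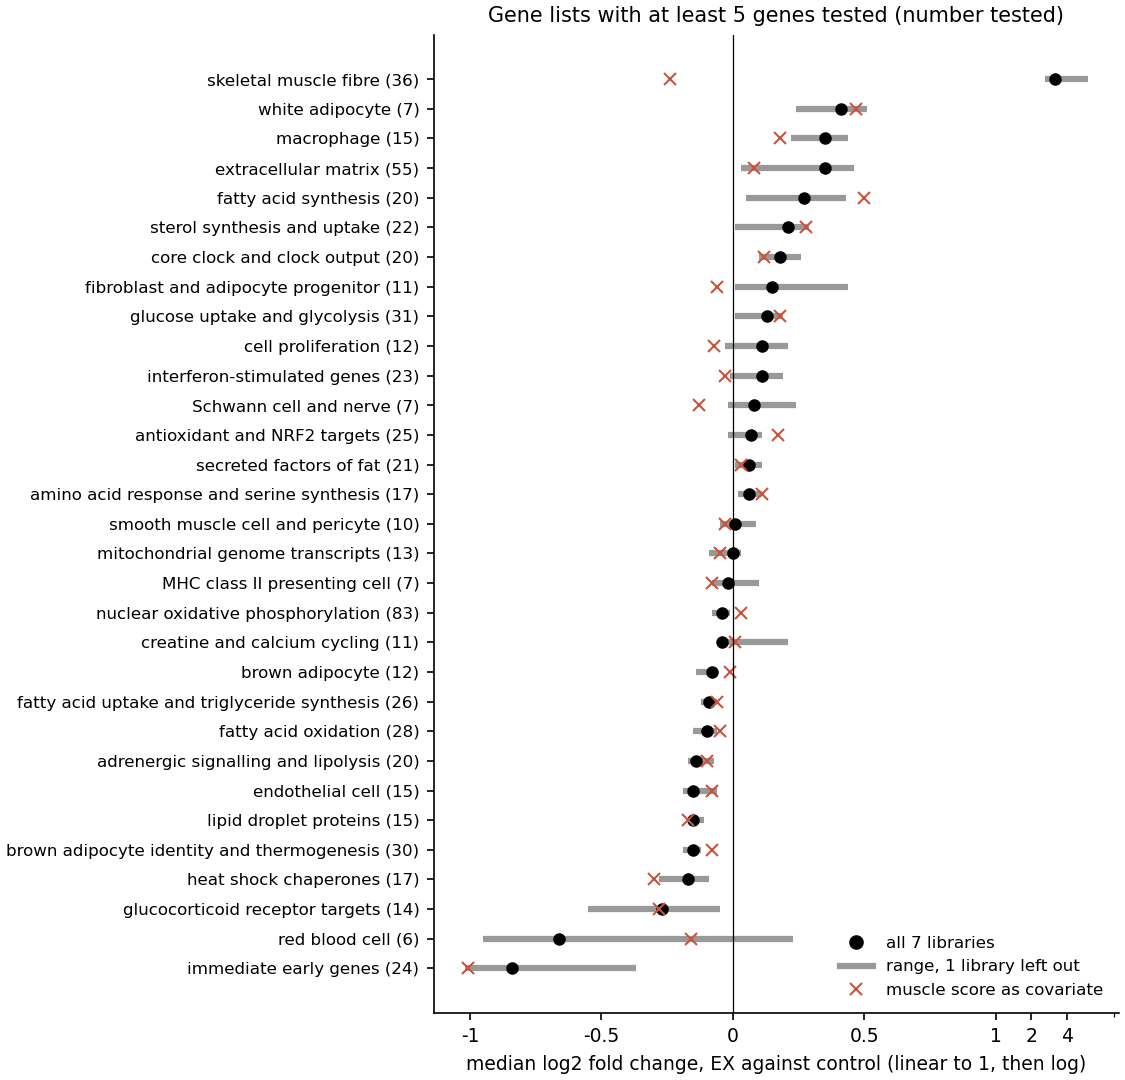
Median log2 fold change of EX against control for each gene list with at least 5 genes tested (number tested in brackets): black point, all 7 libraries; grey bar, range when each library is left out in turn; red cross, fit with the muscle score as covariate. The skeletal muscle fibre list has the highest median, 3.19, and its cross is near 0 by construction, since the score is the mean of the same genes, and the extracellular matrix list has a wide bar.

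EX replicate 3 also stood apart in macrophage markers, with a summed level of 167 CPM against 97.3 to 113 CPM in the other 6 libraries. All 15 macrophage markers were higher in EX (51.9% of all genes tested were), with a median log2 fold change of 0.35. At an unadjusted p under 0.05, 3 were higher (Cd14, Clec10a and Mrc1), against 3.30% of all genes. That count was 1 without control replicate 3 or with the muscle score as covariate, and 0 without EX replicates 2 and 3. It was 2 to 6 without any other single library. Without EX replicate 3 the median was 0.22, with 12 of the 15 higher at any p, and without EX replicates 2 and 3 it was 0.11. Cd14, a receptor for bacterial lipopolysaccharide, was at 2.19 to 2.94 CPM in the control libraries and at 3.37 to 3.89 CPM in the EX libraries. Red cell transcripts were lower in all 6 genes tested, and higher in all 6 without control replicate 3, whose summed level was 3194 CPM against 783 to 1417 CPM elsewhere. Hepatocyte transcripts were highest in EX replicate 2, at a summed 84.2 CPM against 1.15 to 8.44 CPM elsewhere. Markers of B cells, T cells, neutrophils and mesothelial cells gave at most 3 testable genes each. The part of these cell types in the other differences was not tested.

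Several fixed lists gave few or no separated genes. Smooth muscle and pericyte markers had a median log2 fold change of 0.01, fibroblast and progenitor markers one of 0.15, Schwann cell and nerve markers one of 0.08, MHC class II markers one of -0.02 and white adipocyte markers one of 0.41. Among the interferon-stimulated genes, Gbp2 was the only one higher at an unadjusted p under 0.05, and 1 gene was lower. That list had a median of 0.11 (-0.12 without EX replicates 2 and 3). The heat shock chaperones had one of -0.17, the creatine and calcium cycling genes one of -0.04 (0.21 without EX replicate 1), the proliferation genes one of 0.11 and the secreted factors of fat one of 0.06. Of the 17 chaperones tested 13 were lower (48.1% of all genes tested were), 1 of them at an unadjusted p under 0.05. Their summed level did not overlap, at 2246 to 2448 CPM in the control libraries and 1799 to 2188 CPM in the EX libraries. The sterol list had a median of 0.21 (0.01 without EX replicate 1). In the fatty acid uptake and triglyceride list, at -0.09, Dgat2 and Agpat3 were lower at that p.

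Among the antioxidant genes, with a median of 0.07, Gclc, which limits glutathione synthesis, was at 16.7 CPM in each control library and at 19.2 to 21.1 CPM in the EX libraries. Hmox1, heme oxygenase 1, was at 5.36 to 6.36 CPM against 6.91 to 11.7 CPM, a log2 fold change of 0.62 ± 0.17. In the amino acid response and serine list, with a median of 0.06, the 3 genes of proline synthesis and mitochondrial one-carbon metabolism that were higher without overlap (Pycr1, Mthfd1l and Aldh18a1) were at 1.86 CPM or less in every library. Psat1, of serine synthesis, had a log2 fold change of 0.18 ± 0.18.

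The same training contrast under calorie restriction, CREX against CR, shares no library with this one. It gave 1 DEG by edgeR among 13112 genes (0.00763%), Psat1, which was higher in CREX (log2 fold change 1.16, adjusted p = 0.0343). Across genes, which are not independent of each other, the log2 fold changes of the 403 muscle-enriched genes tested in both contrasts had a Pearson r of 0.87 and a Spearman rho of 0.86. Those of the 12505 other genes had an r of 0.16 and a rho of 0.08. Of the genes past 1.5-fold and an unadjusted p under 0.05 with free feeding, the muscle-enriched ones were higher under restriction in 57 of 57 cases, where 97.8% of all muscle-enriched genes were. Of the other genes, 40 of 64 higher ones were also higher, against 48.5% of all such genes, and 51 of 98 lower ones were also lower, against 51.5%. Muscle-enriched genes took 0.179% to 0.550% of the counts in the CR libraries and 0.428% to 1.94% in the CREX libraries.

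**Figure D5:**
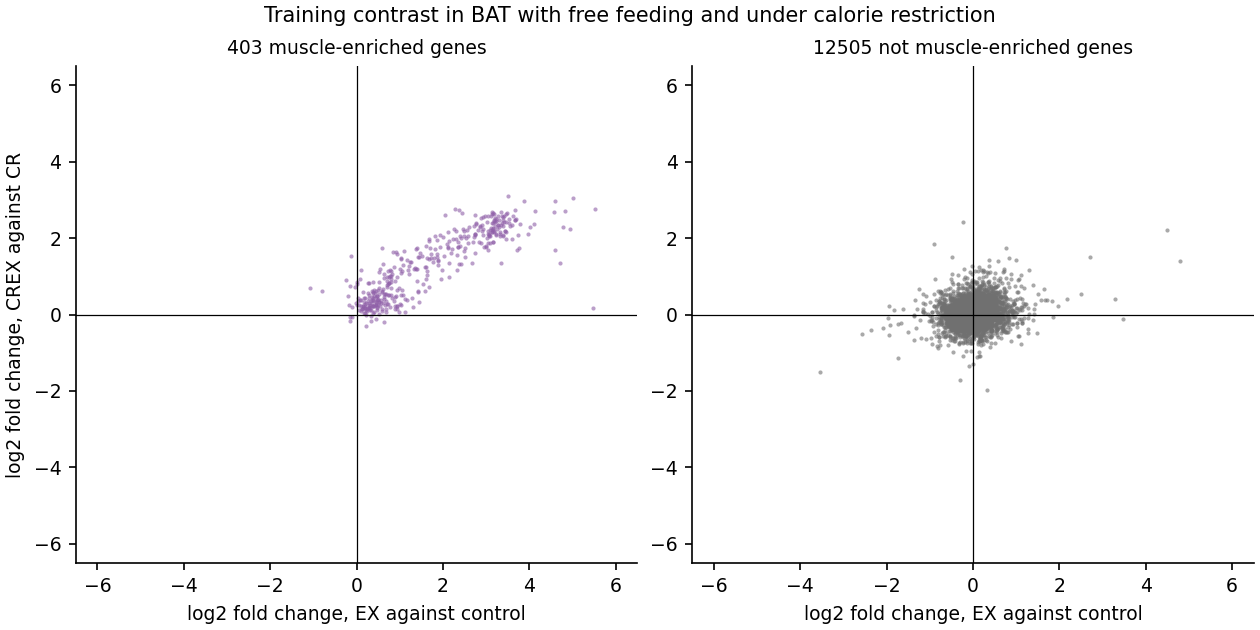
Log2 fold change of CREX against CR (vertical axis) against that of EX against control (horizontal axis), 1 point a gene, for muscle-enriched genes (left) and all others (right). The left cloud lies along a rising line, mostly above 0 on both axes, and the right cloud is centred on 0.

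The difference between both training effects was tested as an interaction over all 15 BAT libraries. By edgeR 0 of 13922 genes passed an adjusted p under 0.05 (0%), 800 (5.75%) had an unadjusted p under 0.05, and DESeq2 passed 4. The smallest adjusted p, 0.179, was that of Mcam, which had a log2 fold change of -0.63 with free feeding and 0.37 under restriction. Col4a1 was lower by 0.38 on the log2 scale with free feeding and had a log2 fold change of 0.05 under restriction. Dbp had one of 0.66 and one of -0.48 (interaction unadjusted p of 2.1e-04 for Col4a1 and 0.0104 for Dbp by edgeR). Both genes stood out in EX against control, a contrast that is part of the interaction. A small unadjusted p thus follows in part from their choice. The same holds for the 36 DESeq2 DEGs of that contrast, of which 21 had an unadjusted interaction p under 0.05 by edgeR. That count therefore cannot be set against the 5.75% of all genes. Pik3r1 and Igf1 were higher on both diets, at log2 fold changes of 0.77 and 0.60 under restriction. Under restriction Nr4a3 had a log2 fold change of -1.50 and Nfil3 one of 0.06. Of the DESeq2 calls that were tested under restriction, 11 of 23 lower ones were also lower and 8 of 12 higher ones also higher, against 49.9% and 50.1% of all genes. Muscle-enriched genes, of which 97.8% were higher under restriction, made up 5 of the 13 higher calls, so 50.1% is too low a base for that side.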

How the data were processed

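Total RNA of BAT and gastrocnemius was extracted with TRIzol and sequenced as paired reads on a BGISEQ-500 (29 libraries, 15 of BAT). The authors aligned reads to mm10 with STAR (2.7.10a per the submitters' processing notes), estimated gene abundance with RSEM (1.2.28 in those notes) and deposited expected counts, of which 6.11% are not whole; the command in the methods has no strand option, and the annotation is not given in the sources used here. In the deposited file, 27 symbols had become dates, and 2 symbols occur more than once.

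Expected counts were rounded. EX and control libraries were fitted alone with edgeR 4.0.16 (R 4.3.3): filterByExpr, TMM, robust quasi-likelihood test, Benjamini-Hochberg adjustment over all genes tested, DEG when past 1.5-fold with an adjusted p under 0.05. SEs were taken from the F statistic. CPM were TMM-scaled over the 15 BAT libraries. Overlap means any EX library within the range of the control libraries, or the reverse. Scripts were tested on simulated counts. DESeq2 1.42.0, the tool of the study's methods, RLE scaling, other filters, a muscle score covariate, a replicate block and leaving out each library were alternatives.

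Genes named are those with the smallest p at a fold change above 1.5 without overlap (10 in each direction), up to 4 with the smallest p per list, a set of fixed genes, the 5 largest DESeq2 calls in each direction and the 5 smallest interaction p; other list members and DESeq2 calls were named after their values were seen. The comparison, members and lists were chosen with earlier results of these data known. P-values measure the spread between libraries. Coordinates and sequences are RefSeq's for GRCm38.p6, the build that mm10 names. Intervals of fold changes were built from the SEs and include the spread between libraries. Floors of single counts cover counting error only. Some genes that meet these rules are not reported here.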

Additional observations from a re-analysis of the deposited data

Results flagged for a closer look

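In the 4 EX libraries, 117 values (named genes, summed lists and shares of counts) were checked for a single library far from the other 3, by its gap to the nearest one over the whole range (Dixon's test at 95%); chance flags about 5% of such groups, and 9 values were found. EX replicate 3 was high in Col1a1 (350 CPM, the others at most 39.0), in the summed extracellular matrix list (4603 CPM, the others at most 2552), in Myh7 (180 CPM, the others at most 9.79) and in the summed T cell markers (10.6 CPM, the others at most 5.67). EX replicate 2 was high in Alb (38.9 CPM, the others at most 0.0875) and in the summed hepatocyte markers (84.2 CPM, the others at most 1.66), and low in Col5a3 (15.7 CPM, the others at least 20.2). EX replicate 4 was high in Gpx8, a peroxidase of the endoplasmic reticulum (143 CPM, the others at most 82.5). EX replicate 1 was low in the summed smooth muscle and pericyte markers (363 CPM, the others at least 411). The 3 control libraries are too few for this check.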

How the results depend on the processing

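The edgeR count of 0 DEGs was 0 again with RLE scaling, with 10 counts required in every library and without a fold change minimum. DESeq2 gave 36, and the unadjusted p with the fold change minimum 272. Without a filter on low counts there were 7 (Dbp, Atg101, Ctcflos, Mcam, Peg3os, Prkag2 and Shb), and 1 each in the fit on all 15 BAT libraries (Atg101), with the muscle score as covariate (Gpx8, log2 fold change 1.12) and with muscle-enriched genes taken out (Dbp). Leaving out 1 library gave 0 to 2, the highest without EX replicate 4 (Cyp2b10 and Got1). Without EX replicates 2 and 3 together, an alternative chosen after the data were seen, there were 13, among them Alas1, Bcl9l, Gadd45g, Klhl25, Nfil3 and Rpl36 lower, and Chn1, Dbp, Lctl, Mal2, Pqlc3 and Tkt higher. The cause of these changes was not tested. The 272 genes at the unadjusted p became 476 with DESeq2, 493 without the filter, 459 in the fit on all 15 libraries and 428 without EX replicates 2 and 3, and 169 to 478 with 1 library left out (169 without control replicate 3, 478 without EX replicate 4).

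The interaction count of 0 became 4 with DESeq2 (Col4a1, Ffar2, Mcam and Notch1), 1 without the filter and 1 with the covariate (Mcam both times) and 279 at an unadjusted p with the fold change minimum; it was 0 with RLE scaling and 0 to 0 with 1 library left out.

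The deviations of same-numbered EX and control libraries from their group means were not positively correlated (-0.149, -0.0615 and -0.392). So few correlations cannot exclude a pairing, and the labels state none. The replicate block gave 1 DEG (Nr4a3, log2 fold change -3.19) in place of 0 and an interaction count of 0.

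Of 1250 alternative values of the 79 named genes 16, in 10 genes, changed sign. With the covariate these were Acta1 (-0.85), Ckm (-0.41), Myh4 (-0.93) and Myh7 (-0.63), which are part of the muscle score and so tell nothing, and Alb (-0.20) and Cidea (0.09); with the replicate block, Egr1 (0.11); without EX replicates 2 and 3, Alb (-4.72) and Cidea (0.07). With 1 library left out, Fos ran from -1.31 to 1.04, Egr1 from -2.03 to 1.41, Elovl3 from -0.02 to 0.59, Cidea from -0.09 to 0.02 and Hbb-bt from -1.02 to 0.13. Of 504 alternative medians of the 36 lists, 24 moved by more than the list's median SE. Muscle-enriched genes had a median SE of 0.69 and the others one of 0.12. At 0.122 to 0.143 CPM for 3 counts, transcripts listed at 0 (Myh7 in control replicate 3 and EX replicate 4) or under 1 CPM were limited by depth.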
